A study of Mus musculus with 2 samples.

Results

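Interferon-responding T cells are T cells whose RNA carries the genes that interferons switch on. They were gated on raw counts of unique molecular identifiers (UMIs, each standing for 1 captured RNA molecule) in cells that passed a filter of 500 or more genes and less than 10% of UMIs from mitochondrial genes. The gate asked for at least 1 UMI of Cd3e, at least 1 of Ifit3 and at least 1 of the partner genes Ifit1, Rsad2 or Ifit3b, with 0 UMIs of Foxp3, Cd79a and Mki67. It took 532 of the 14372 cells kept, 333 from the Prmt5 CKO library and 199 from the control library. The 12479 kept cells that met every other condition on Cd3e, Foxp3, Cd79a and Mki67 are called eligible, and the 11947 of them outside the gate are called other T cells. The cells were chosen by the UMIs of the 4 interferon genes, so their levels in the gated cells are a description. Usp18 was not used by the gate.

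CD3+ cells sorted from mouse spleen were profiled with the 10x Genomics 3′ V3.1 chemistry, 1 library per group. The CKO group lacks the arginine methyltransferase Prmt5 through a floxed gene (PRMT5fl/fl) and a CD4-Cre transgene, which is active in developing T cells and reaches both the CD4 and the CD8 lineage. The control group is named only in its title, since the genotype field of both samples reads CD4-Cre+ PRMT5fl/fl, so the groups follow the titles. Both groups are C57BL/6, the design text gives 3 mice per group, no age is given in the sources used here, and cells are not mapped to mice. Each library therefore counted as 1 sample, no test across replicates exists, and an effect of genotype and one of the library cannot be told apart. All intervals below are 95% intervals that cover counting error only.

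Type I interferons bind the receptor chains Ifnar1 and Ifnar2, whose kinases send a signal to the nucleus. There, interferon-stimulated response elements in promoters switch on antiviral effectors, nucleic acid sensors and further transcription factors such as Irf7. Usp18 closes the loop by binding the receptor and damping its signal, and it also removes the ubiquitin-like protein Isg15 from its targets. Interferon-γ acts through Ifngr1 and Ifngr2 and adds guanylate-binding proteins, immunity-related GTPases and class I antigen presentation.

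The gate genes share a promoter feature that the gate did not use. The core of the response element, GAAA followed by any 2 bases and a second GAAA, was searched on both strands in RefSeq promoters (GRCm38.p6, from 250 bases before to 50 bases after each start). It was found for 4 of the 4 interferon genes of the gate, against 1079 of 27025 genes (3.99%). These 4 are in the gate because they are interferon response genes, and Ifit3 and Ifit3b are near copies. The count therefore describes the genes and lends no support to the gate. Windows of 30 bases are shown along the gene's own strand with the match in capitals, because they show how alike the selected genes are.
Ifit3 (chr19:34583363-34583392, plus strand): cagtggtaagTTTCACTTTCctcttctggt
Ifit3 (chr19:34583397-34583426, plus strand): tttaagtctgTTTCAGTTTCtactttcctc
Ifit3b (chr19:34607759-34607788, plus strand): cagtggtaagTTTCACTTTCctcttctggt
Ifit3b (chr19:34607793-34607822, plus strand): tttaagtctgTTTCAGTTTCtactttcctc
Ifit1 (chr19:34640775-34640804, plus strand): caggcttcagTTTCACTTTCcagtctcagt
Ifit1 (chr19:34640794-34640823, plus strand): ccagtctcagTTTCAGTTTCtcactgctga
Rsad2 (chr12:26456553-26456582, minus strand): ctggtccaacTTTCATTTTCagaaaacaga
Isg15 (chr4:156200871-156200900, minus strand): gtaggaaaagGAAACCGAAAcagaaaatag
Oas3 (chr5:120777715-120777744, minus strand): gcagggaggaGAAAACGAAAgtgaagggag

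The windows of Ifit3 and Ifit3b hold the same letters, at different distances from the start. Ifit1 carries the same pair of matches, TTTCACTTTC and TTTCAGTTTC, in a tighter arrangement. Isg15, shown as a response gene outside the gate, holds 3 overlapping matches of which 1 is printed. Of the 73 type I response genes outside the gate that were measured in gated cells, 59 had a promoter entry and 28 of these (47.5%) held a match. The motif was in 7 of 8 promoters of the type II list and in 0 of 9 of the naive T cell list. It was in 1 of the 8 promoters available for the 10 genes highest in CKO over control gated cells. No match was found for Irf7, Oasl2 or Isg20, which says only that these letters are not in this window.

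Ifit3 (chromosome 19, 34583531 to 34588731, plus strand) and Ifit3b (chromosome 19, 34607970 to 34613401, plus strand) are near copies. Their longest coding transcripts were 81.2% identical over the alignment and 44.2% identical over the last 300 bases, where 3′ reads fall. Reads from the shared parts could have been split between them, which was not tested. Ifit1 (chromosome 19, 34640871 to 34650009, plus strand) belongs to the same cluster, whereas Rsad2 lies on chromosome 12 from 26442746 to 26456452 on the minus strand. These positions are from the GENCODE vM21 annotation of mm10.

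The CKO library held 7896 barcodes and 52387620 UMIs, and the control library 7407 barcodes and 48273424 UMIs. Of these, 7660 and 6712 cells were kept, and 6606 and 5873 were eligible. Gated cells had median depths of 6347 and 6990 UMIs, and other T cells 6020 and 6280.5. Gated cells had median mitochondrial shares of 4.21% (CKO) and 4.82% (control), close to those of other T cells (4.35% and 5.11%). The libraries shared 11 barcodes, of which 0 were gated. Prmt5 had 15 UMIs (6.33 CPM, UMIs per 1000000 UMIs of the summed cells) in gated CKO cells and 14 (9.13 CPM) in gated control cells, a log2 ratio of −0.53 (−1.68 to 0.63). In other T cells Prmt5 stood at 4.58 and 14.8 CPM, a log2 ratio of −1.69. The deleted exons are not stated in the sources used here, so it is not known whether 3′ reads check the deletion.

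Other genes of the same response, which the gate did not use, were also higher in gated cells. Since the gate was made of genes of that response, their levels describe the cells and lend no support to the label. In CKO cells Isg15, the ubiquitin-like protein of the response, was at 492 CPM inside and 34.9 CPM outside the gate, and in control cells at 541 and 32.6 CPM. Irf7 was at 243 against 42.5 CPM and at 181 against 34.6 CPM. Slfn5, an interferon-induced Schlafen protein, was at 305 against 54.5 CPM and at 273 against 36.9 CPM. The gate genes were lifted by construction, with Ifit3 at 406 and 405 CPM in gated cells against 13.2 and 7.41 CPM outside.

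The gated cells made up a larger share of eligible T cells in the CKO library. They were 5.04% (4.53 to 5.60) of CKO and 3.39% (2.94 to 3.88) of control cells, a ratio of 1.49 (1.24 to 1.78). Among CD4 cells, which have a Cd4 UMI and none of Cd8a or Cd8b1, it was 4.75% (101 of 2128) and 3.41% (58 of 1700), a ratio of 1.39 (0.997 to 1.96). Among CD8 cells it was 5.21% (93 of 1784) and 3.68% (81 of 2201), a ratio of 1.42 (1.04 to 1.93). At the depth as sequenced the CD4 and CD8 ratios lay within each other's intervals. Cells with neither receptor detected gave 4.68% and 2.98%, and cells with UMIs of both gave 7.45% (35 of 470) and 3.42% (10 of 292). Cells with both may be doublets, which were not removed.

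**Figure D1:**
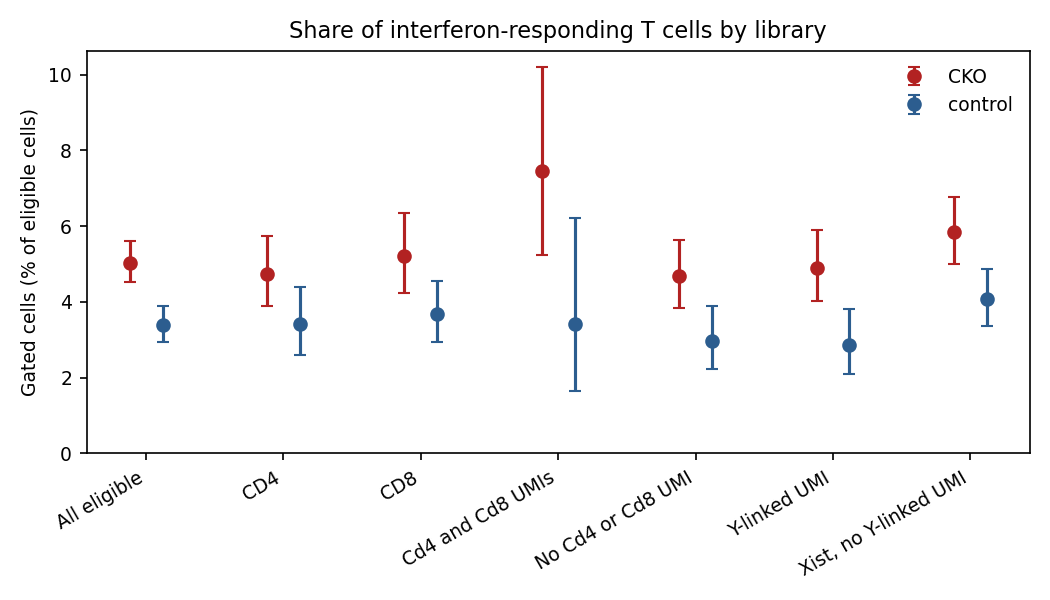
Share of eligible T cells inside the gate (%, points) with exact 95% binomial intervals (bars) for the CKO and control libraries, over all eligible cells, by Cd4 and Cd8 UMIs, and by Y-linked or Xist UMIs. The CKO point lies above the control point in each of the 7 pairs, and the intervals overlap within the CD4, CD8, both-receptor and no-receptor pairs.

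Both libraries held cells with a UMI of a Y-linked gene and cells with Xist. With a Y-linked UMI, 4.90% of CKO cells (107 of 2182) and 2.86% of control cells (46 of 1606) were gated, a ratio of 1.71 (1.20 to 2.47). In cells with Xist and no Y-linked UMI it was 5.84% (167 of 2858) and 4.07% (115 of 2828), a ratio of 1.44 (1.13 to 1.84). The share was higher in the CKO library in both subsets.

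CD8 cells were 47.9% (93 of 194) of the gated CD4 and CD8 cells in the CKO library and 58.3% (81 of 139) in the control. Among other T cells they were 45.5% and 56.4%. The lineage makeup of the gated cells thus followed that of the library they came from, and it differed between libraries as much outside the gate as inside.

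The same pair of interferon genes was looked for where it was not part of the gate. Among Foxp3+ Cd3e+ cells, 22 of 354 in the CKO and 11 of 375 in the control library had Ifit3 and a partner. Among Mki67+ Cd3e+ cells these were 12 of 147 and 6 of 119. Among B cells, taken as Cd79a+ without Cd3e, the count was 0 of 55 (interval up to 6.49%) and 0 of 51 (up to 6.98%), at median depths of 4009 and 4236 UMIs. Those limits lie above the share in T cells, so free RNA could not be bounded below it from so few B cells. Within eligible T cells the genes occurred together. A partner was found in 42.6% and 44.6% of cells with Ifit3, against 10.0% and 9.18% of cells without it.

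The ratio of shares depended on which interferon gene opened the gate. Ifit3 was detected in 11.8% of eligible CKO and 7.59% of control cells, a ratio of 1.56 (1.38 to 1.75), and Ifit3b in 3.48% and 2.06%, a ratio of 1.69 (1.35 to 2.12). Ifit1, an RNA-binding antiviral protein, was found in 10.97% and 9.89%, a ratio of 1.11 (0.993 to 1.24). Rsad2, the antiviral enzyme viperin, was found in 2.95% and 2.43%, a ratio of 1.21 (0.972 to 1.52). Isg15 was found in 18.9% and 17.7%, a ratio of 1.07 (0.982 to 1.16), and Irf7 in 22.9% and 20.2%, a ratio of 1.13 (1.05 to 1.23). At the depth as sequenced, detection of Ifit3, Ifit3b and Slfn5 (27.4% and 19.9%, a ratio of 1.37) thus differed more between the libraries than that of Ifit1, Isg15 and Irf7. With each cell thinned to 2000 UMIs the ratios were 1.54 for Ifit3, 1.95 for Ifit3b and 1.26 (1.11 to 1.43) for Slfn5. Those of Ifit1, Isg15 and Irf7 were 1.30 (1.08 to 1.57), 1.17 and 1.13, so at that depth the order did not hold for Slfn5 against Ifit1.

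Gates without Ifit3 and Ifit3b, added after the values at the depth as sequenced were seen, gave smaller ratios. Ifit1 with Rsad2 or Isg15 took 5.36% and 4.78% of eligible cells, a ratio of 1.12 (0.955 to 1.31). Isg15 with Irf7 took 7.43% and 5.96%, a ratio of 1.25 (1.09 to 1.43). At matched depth, each cell was thinned to 3000 UMIs, with 320 and 157 shallower kept cells left out. Every condition of the gate was then called again on the thinned UMIs, so eligible cells fell to 5681 and 5257. The main gate took 2.89% and 2.05% of these, a ratio of 1.41 (1.10 to 1.81). At 2000 UMIs, with 59 and 38 kept cells left out, 5100 and 4611 cells were eligible. There the main gate took 1.63% and 1.26%, a ratio of 1.29 (0.914 to 1.84). By lineage, thinning to 3000 UMIs gave ratios of 2.64 (1.35 to 5.56) in CD4 and 1.37 (0.842 to 2.23) in CD8 cells, on 12 gated control CD4 cells. Thinning to 2000 UMIs gave 3.06 (1.10 to 10.5) and 1.41 (0.672 to 3.01), on 5. The CD4 and CD8 calls were remade on the thinned UMIs as well. Eligible CD4 cells fell to 1254 and 1047 at 3000 UMIs and to 834 and 671 at 2000 UMIs. A stricter filter of 1000 genes and 5% mitochondrial UMIs gave a ratio of 1.29 (1.03 to 1.61) over all eligible cells and 1.004 (0.691 to 1.47) in CD8 cells, where the libraries no longer differed by more than counting error. Over all eligible cells each ratio was above 1, by amounts that the intervals of the Ifit1 gate and of the thinning to 2000 UMIs did not separate from 1.

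**Figure D2:**
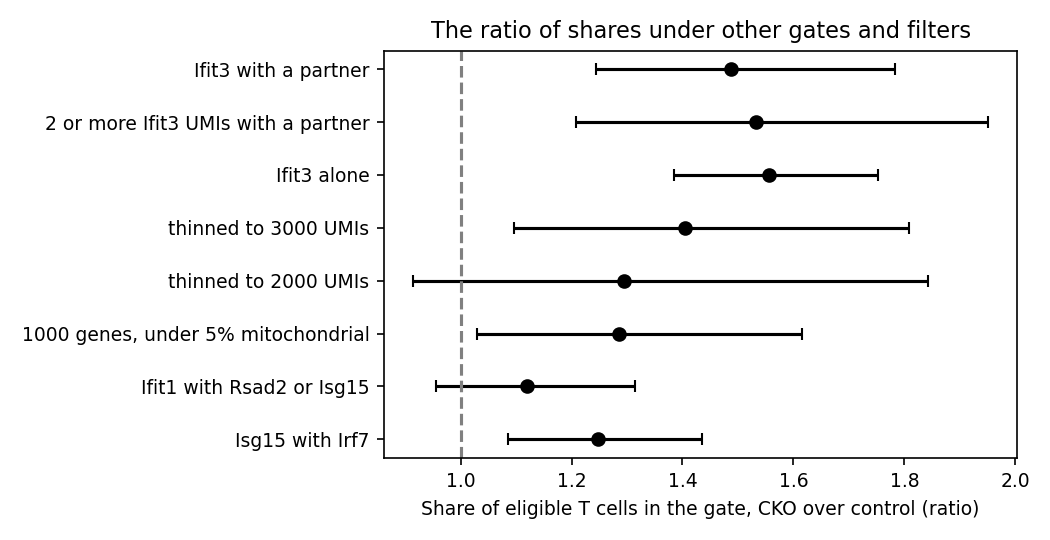
Ratio of the share of eligible T cells inside the gate, CKO over control (points), with exact 95% counting intervals (bars), under the gate used and 7 other gates or filters. The ratio was 1.12 for the gate on Ifit1 with Rsad2 or Isg15 and 1.56 for Ifit3 alone, and the dashed line marks equal shares.

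Gated cells had higher type I scores than other T cells, with overlap. The score was taken per cell as the UMIs of the 88 type I response genes outside the gate per 10000 UMIs of the cell. Its lowest, median and highest values were 36.9, 153 and 760 in gated CKO cells and 42.8, 144 and 754 in gated control cells, against medians of 64.0 and 62.4 in other T cells. In both libraries the ranges overlapped widely, and single other T cells reached 437 and 329. Of gated cells, 74.8% (CKO) and 74.4% (control) lay above the 90th percentile of the other T cells of their library. Since other T cells are far more numerous, most cells above that level lay outside the gate.

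Cells just inside the gate, with 1 Ifit3 UMI and 1 partner UMI, had medians of 108 (83 cells) and 105 (39 cells). Cells just outside had 76.0 and 78.4 with Ifit3 and no partner, and 82.3 and 83.8 with a partner and no Ifit3. Cells with at least 3 Ifit3 UMIs reached 224 (124 cells) and 236 (69 cells). At each step the medians of the libraries lay close to each other, where the step itself matches cells on gate genes of the same response. The mix of weakly and strongly gated cells was also alike, with 1 Ifit3 UMI in 42.0% and 43.7% of gated cells and 3 or more in 37.2% and 34.7%.

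**Figure D3:**
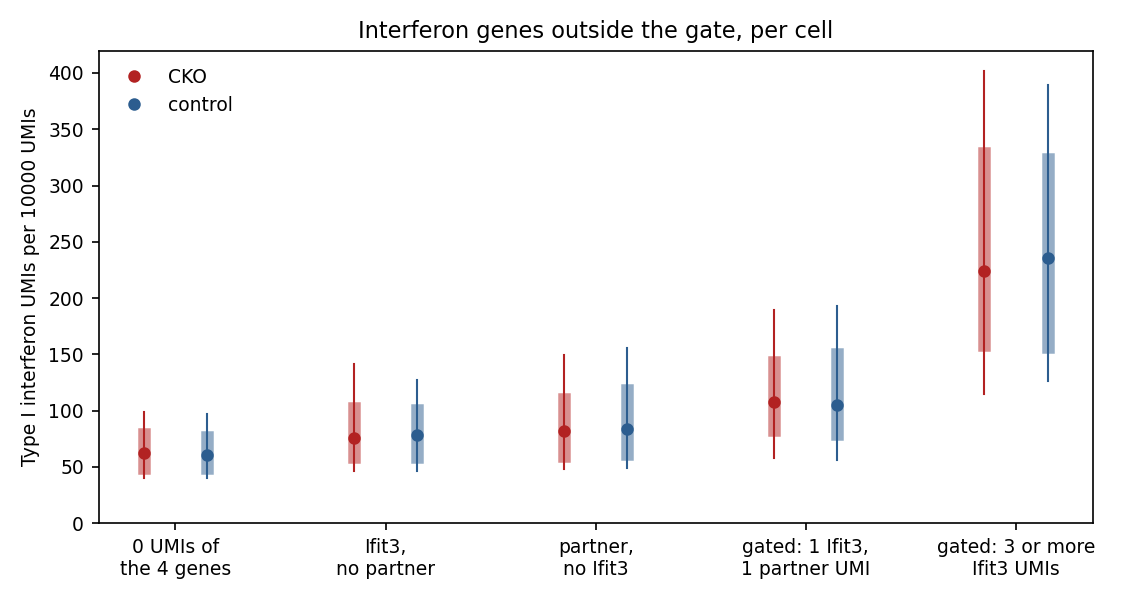
Type I interferon UMIs per 10000 UMIs of a cell, over 88 genes outside the gate, for 5 classes of eligible cells in the CKO and control libraries (point, median over cells; thick bar, 25th to 75th percentile; thin line, 10th to 90th percentile). Medians rise from 62.1 and 60.7 in cells without a UMI of the 4 gate genes to 224 and 236 in cells with at least 3 Ifit3 UMIs.

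What set gated cells apart from other T cells of the same library is described without a test, since the gate chose them. For this and later comparisons, a gene counted as measured with at least 60 UMIs over both sums and a mean of at least 30 CPM, and as higher or lower past 1.5-fold. Of the type I response genes outside the gate, 56 of 60 measured were higher in the CKO library and 58 of 62 in the control, against 3.04% and 3.7% of all measured genes (0.193% and 0.311% were lower). The medians were 1.67 and 1.69 on the log2 scale, against −0.04 and −0.03 over all genes. The list was read across a gate made of its own pathway, so nothing follows from its count.

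Across both libraries the genes highest in gated cells were Isg15, Ifitm3, Oasl2, Isg20, Usp18, Oas3, Iigp1, Ifih1, Slfn5, Irf7, Rtp4 and Eif2ak2. They cover the arms of the response. Oas3 and Oasl2 belong to the oligoadenylate synthetase family that senses double-stranded RNA, and Eif2ak2 (PKR) stops translation on the same ligand. Ifih1 (MDA5) is a cytosolic RNA sensor, Isg20 an exonuclease, Ifitm3 a membrane protein that blocks viral entry, and Iigp1 an interferon-inducible GTPase. In the CKO library the log2 ratios of these 12 genes ran from 2.24 for Eif2ak2 to 3.82 for Isg15. In the control library they ran from 2.38 for Irf7 to 4.97 for Ifitm3.

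The receptor side of the pathway was read in the same way. Of 7 receptor and kinase genes measured, 0 were higher past 1.5-fold in either library, with Ifnar1 at 0.09 and 0.17 and Jak1 at −0.01 and −0.10. With 3.04% (CKO) and 3.7% (control) of all measured genes higher, a count of 0 of 7 shows nothing particular to them. Among transcription factors Irf7 (2.51 and 2.38) was higher, while Irf2 (0.43 and 0.48) and Irf3 (0.15 and −0.13) stood below 1.5-fold. Of the type II list, with its guanylate-binding proteins and GTPases, 10 of 10 measured genes were higher in each library. Of 18 class I presentation genes, 7 were higher in each library, with small steps at the highly expressed H2-K1 (0.20 and 0.11) and B2m (0.33 and 0.26). The type II and class I lists were read across a gate made of interferon genes, so nothing follows from their counts.

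Interferon itself was hardly seen. Of 21 interferon genes, 20 were at 0 UMIs in the gated cells of each library, and the remaining one, Ifng, had 48 UMIs in 18 CKO cells and 16 UMIs in 9 control cells. Ifng stood at 20.3 and 10.4 CPM, on few UMIs.

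Of 3403 genes measured in both libraries, 97 were higher in the gated cells of both. That is 91.5% of the 106 higher in the CKO and 80.8% of the 120 higher in the control library. Of the 97, 71 belonged to the interferon or class I lists and 26 did not. The 26 include Samd9l, an antiviral factor (log2 ratio 1.38 and 1.57), Trafd1 (1.95 and 2.19), Pydc3 (1.61 and 1.71), Jaml (1.32 and 2.12), Plac8 (1.26 and 1.31) and the chromatin protein Smchd1 (0.86 and 0.89). These 6 were picked as examples after their values were seen. The lowest genes were Srm, Egln1, Eif3b, Hspa9, Bccip and Cfl2, with log2 ratios between −0.71 and −0.38.

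Gated cells carried a large part of some transcripts. They held 5.46% of all UMIs of eligible cells in the CKO library and 3.80% in the control. For Isg15 they held 44.9% and 39.5%, for the GTPase gene Mx1 82 of 155 and 50 of 100 UMIs, and for Usp18 27.6% and 31.3%. For Bst2 (tetherin) the shares were 17.1% and 14.9%, and for Ifi27l2a 14.1% and 9.41%, so most of the RNA of these response genes came from cells outside the gate.

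Inside the gate the type I response stood at a similar level in both libraries. The gate set the same minimum on genes of this response in both libraries, so part of that likeness follows from the gate. Of 95 genes on the list 4 were gate genes and 3 were not analysed here. Of the other 88, 73 passed the count minimum in the gated cells, and their median log2 ratio of CKO over control was −0.04, against 0.05 over all 3568 genes measured. Past 1.5-fold, 2 of the 73 were higher (Usp18 and Ifitm3) and 1 was lower (Cmpk2). Over all measured genes 2.49% were higher and 1.32% lower, 89 and 47 genes. With the median of all genes set to 0 these became 64 and 70, so the balance of directions over all genes depends on that scaling. In other T cells 44 type I genes were measured, with a median of 0.05, and Ly6a alone was higher past 1.5-fold and 0 were lower, against 1.03% and 0.472% of all genes. Usp18 and Ifitm3 lay under the level minimum there.

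Among 8 nucleic acid sensors and 6 receptors and kinases measured, 0 passed 1.5-fold, which at the background shares given above shows nothing particular to them. Of the sensors, Ifih1 was at 60.8 against 73.7 CPM, a log2 ratio of −0.28 (−0.64 to 0.09), and Ddx58, the RNA sensor RIG-I, at 102 against 115 CPM, −0.17. Ifnar1 was at 57.0 and 55.4 CPM, a log2 ratio of 0.04 (−0.36 to 0.45), and Ifnar2 at 30.8 and 34.6 CPM, −0.17 (−0.70 to 0.37). The interferon-γ receptor chain Ifngr1 was at 150 and 108 CPM, 0.47 (0.20 to 0.75), an interval off 0.

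Of 8 transcription factors 0 passed 1.5-fold. With 2.49% of all measured genes higher and 1.32% lower, that count shows nothing particular to them. Irf7, which amplifies the response, was at 243 CPM in CKO and 181 CPM in control gated cells, a log2 ratio of 0.43 (0.22 to 0.64). Irf1, an early interferon-γ target, was at 111 and 148 CPM, −0.42 (−0.68 to −0.15). Irf7 and Irf1 thus stood on opposite sides, both with intervals off 0 and both short of 1.5-fold.

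Of 31 antiviral effectors measured 16 were on the CKO side and 15 on the control side. Past 1.5-fold 0 were higher and 1 was lower, against 2.49% and 1.32% of all measured genes. Isg15 was at 492 CPM in the CKO and 541 CPM in the control gated cells, a log2 ratio of −0.14 (−0.27 to −0.01). Slfn5 was at 305 and 273 CPM, 0.16 (−0.01 to 0.34), while in other T cells it was at 54.5 and 36.9 CPM, 0.56. Oasl2 was at 92.4 and 65.9 CPM, 0.49 (0.14 to 0.84), and Rtp4, an interferon-induced transmembrane protein, at 179 and 222 CPM, −0.31 (−0.52 to −0.10). Cmpk2, a nucleotide kinase encoded beside Rsad2, was at 37.1 CPM (88 UMIs) and 63.9 CPM (98 UMIs), −0.78 (−1.22 to −0.35), but at −0.43 in gated CD8 cells, within 1.5-fold. The 6 Ifi200 family genes measured, which include DNA-binding sensors, ran from −0.07 (Ifi206) to 0.10 (Ifi209).

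Ifitm3 was at 93.7 and 58.7 CPM in gated cells, a log2 ratio of 0.67 (0.31 to 1.04). Its UMIs came from 58 CKO and 24 control cells, and the 3 highest cells held 29.3% and 42.2% of them. Within the lineages Ifitm3 differed more, with a log2 ratio of 1.69 (0.95 to 2.50) in gated CD4 cells (98 and 18 UMIs) and 2.82 (1.46 to 4.53) in gated CD8 cells (35 and 5 UMIs), so most of its control UMIs came from gated cells outside the CD4 and CD8 sets. In other T cells it was at 8.60 and 1.88 CPM, 2.20, at low counts.

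**Figure D4:**
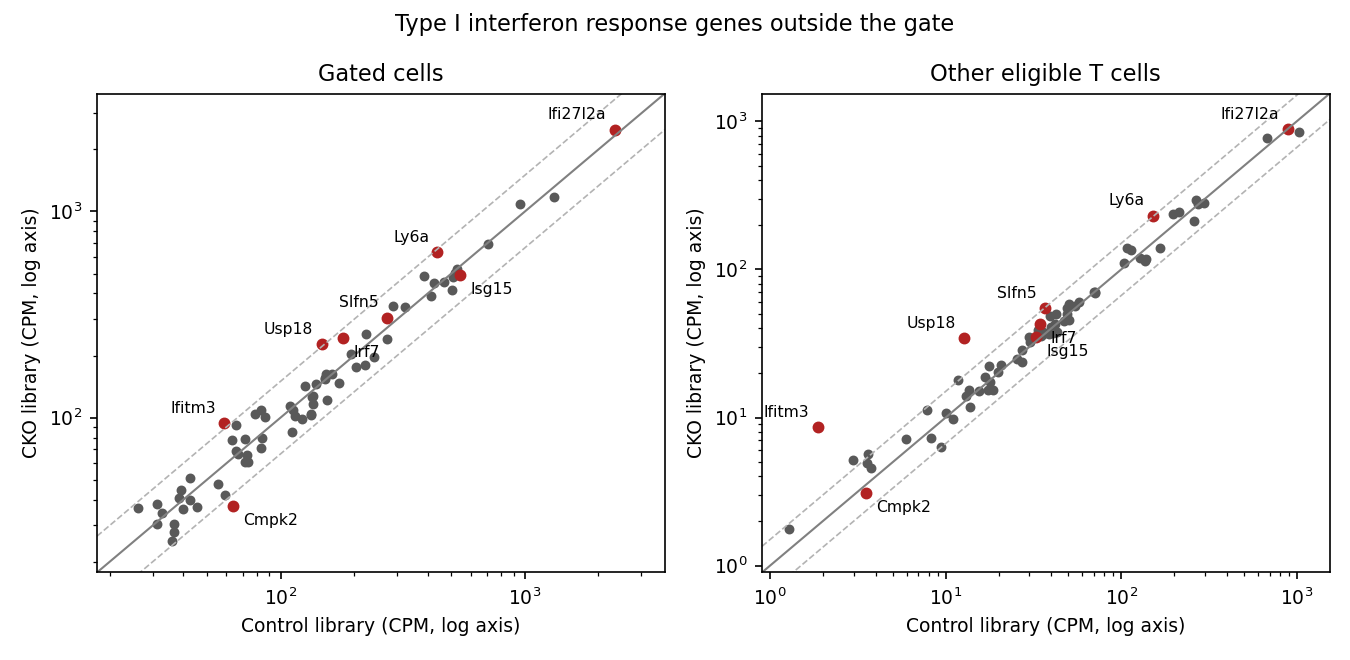
Levels of the 73 type I response genes outside the gate that were measured in gated cells, in the control (x) and CKO (y) libraries, as CPM on log axes, for gated cells (left) and other eligible T cells (right). The solid line marks equal levels and the dashed lines 1.5-fold, named genes are red, and Usp18 lies above the upper dashed line in both panels (227 against 147 CPM and 34.4 against 12.8 CPM).

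Usp18 (chromosome 6, 121245906 to 121270917, plus strand) was higher in the CKO library both inside and outside the gate. Gated cells had 537 UMIs (227 CPM) in the CKO and 226 UMIs (147 CPM) in the control library, a log2 ratio of 0.62 (0.39 to 0.85). Other T cells had 1410 UMIs (34.4 CPM) and 497 UMIs (12.8 CPM), 1.43 (1.28 to 1.58). These intervals do not overlap, but the difference between the ratios was not tested. A Usp18 UMI was found in 63.1% (210 of 333) and 47.7% (95 of 199) of gated cells and in 17.5% and 7.72% of other T cells. In B cells, as a background, it was found in 5 of 55 (9.09%) and 0 of 51 cells (interval up to 6.98%).

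Usp18 was higher in the CKO library at each step of the gate genes' UMIs. In cells without a UMI of the 4 gate genes Usp18 was at 30.3 CPM in the CKO and 10.6 CPM in the control library. It was at 47.8 and 21.6 CPM in cells with Ifit3 and no partner, and at 82.2 and 51.9 CPM just inside the gate. In cells with at least 3 Ifit3 UMIs it was at 360 and 289 CPM. On the linear scale the difference between the libraries grew over these steps, while their ratio shrank. Slfn5 showed 50.4 and 33.7 CPM at the first step and 544 and 566 CPM at the last, where the CKO value was the lower.

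Of the 8 negative regulators measured Usp18 alone passed 1.5-fold, against 2.49% of all measured genes higher and 1.32% lower. Socs1, which blocks the kinases, was at 108 and 103 CPM in gated cells, a log2 ratio of 0.06 (−0.23 to 0.36), and Socs3 at 51.9 and 39.1 CPM, 0.41 (−0.05 to 0.88). The phosphatase Ptpn2 was at 53.2 and 67.8 CPM, −0.35 (−0.74 to 0.04). Nfkbia, the inhibitor of NF-κB, was at 567 and 408 CPM, 0.47 (0.34 to 0.61), with 0.44 in other T cells.

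Of 13 type II genes measured 11 were on the CKO side, with a median log2 ratio of 0.21, 0 higher past 1.5-fold and 1 lower. For these and the class I genes below, the median over all 3568 measured genes was 0.05, with 2.49% higher and 1.32% lower. Gbp9 was at 101 and 70.4 CPM, 0.52 (0.18 to 0.86), and Igtp at 181 and 154 CPM, 0.24 (0.00 to 0.47). Cxcl10, a chemokine, was at 47.3 and 74.3 CPM, −0.65 (−1.04 to −0.26), and 3 control cells held 76.3% of its UMIs there. Without the 3 highest cells of each library the ratio of Cxcl10 was 0.52, on the other side. Of 18 class I genes 12 were on the control side (median −0.08) and 0 passed 1.5-fold, with the nonclassical H2-Q7 at 489 and 664 CPM, −0.44 (−0.57 to −0.32), and −0.53 in other T cells. H2-Q7 has near-identical neighbours among which reads could be split.

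The libraries were also compared within gated CD4 and within gated CD8 cells. In CD4 cells the type I list had a median of −0.13 over 59 measured genes, with 2 higher and 1 lower past 1.5-fold, against 4.76% and 4.09% of all measured genes. In CD8 cells it had a median of 0.16 over 58 genes, with 5 higher and 1 lower, against 6.97% and 2.36%. The medians of all genes were 0.02 and 0.09. Isg15 was at 564 CPM in the CKO and 685 CPM in the control gated CD4 cells, a log2 ratio of −0.28 (−0.50 to −0.06). In gated CD8 cells it was at 439 and 398 CPM, 0.14 (−0.10 to 0.38), on the other side with an interval that includes 0. The type II list had medians of 0.04 and 0.53, with 4 of 10 measured genes higher in CD8 cells and Iigp1 at 61.7 against 25.6 CPM there. The type I counts lay near the shares of all genes, and whether the lineages differ was not tested.

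Usp18 was at 250 CPM (71 of 101 cells with a UMI) in CKO and 200 CPM (30 of 58 cells) in control gated CD4 cells, a log2 ratio of 0.32 (−0.06 to 0.72). In gated CD8 cells it was at 199 CPM (51 of 93 cells) and 99.6 CPM (33 of 81 cells), 1.001 (0.58 to 1.44). Outside the gate the ratios were 1.61 (1.32 to 1.90) in CD4 and 1.48 (1.24 to 1.73) in CD8 cells. The CKO value was thus the higher in all 4 sets, and the interval reached below 0 in gated CD4 cells. Irf7 was at 245 and 169 CPM in gated CD4 cells and at 224 and 149 CPM in gated CD8 cells, higher in the CKO library in both.

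**Figure D5:**
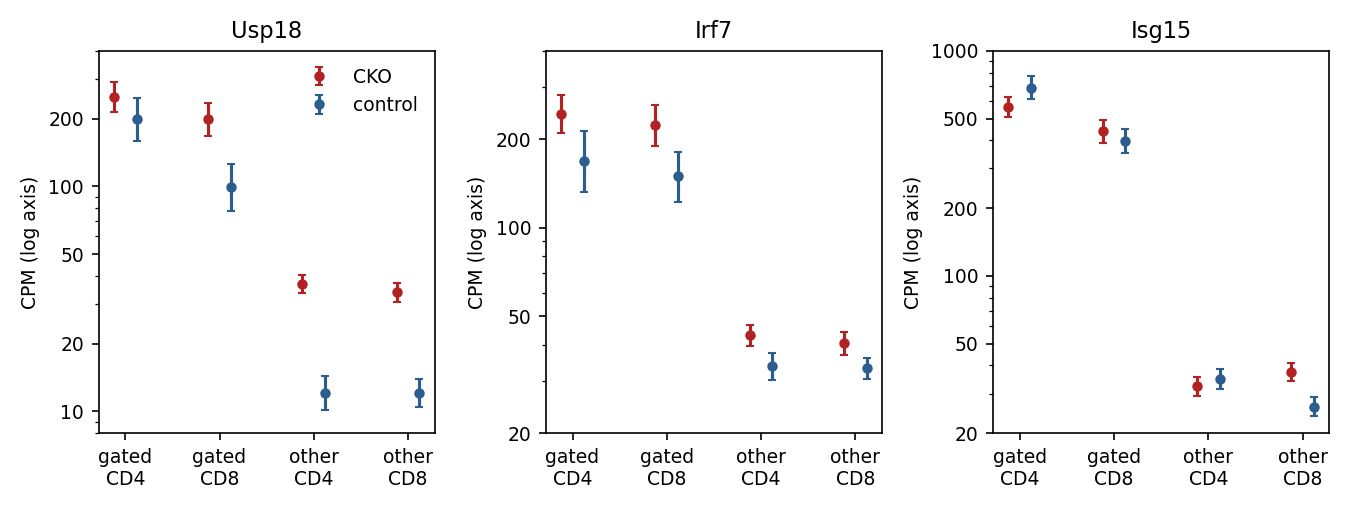
Levels of Usp18, Irf7 and Isg15 as CPM on log axes (points) with exact 95% Poisson intervals (bars) in gated and other CD4 and CD8 cells of the CKO and control libraries. Usp18 is higher in the CKO library in each of the 4 sets, and Isg15 is at 564 against 685 CPM in gated CD4 and 439 against 398 CPM in gated CD8 cells.

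Within a library CD4 and CD8 cells share mice and preparation, so they were also set beside each other. In gated CD8 over gated CD4 cells the type I list had a median log2 ratio of −0.09 in the CKO library, with 1 higher and 7 lower of 61 measured genes, against 5.24% and 5.16% of all genes. In the control library the median was −0.32, with 2 higher and 14 lower of 59, against 5.26% and 8.84% of all genes. Slfn5 was at 192 CPM in CD8 and 392 CPM in CD4 cells of the CKO library and at 181 and 392 CPM in the control. Ly6a (Sca-1), an interferon-induced surface protein, was at 351 and 805 CPM in the CKO and at 188 and 659 CPM in the control library. Both genes were thus lower in gated CD8 cells of either library. Slfn5 was also lower in CD8 than in CD4 cells outside the gate, at 34.0 against 66.5 CPM in CKO and 22.1 against 51.8 CPM in control cells.

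The genes with the widest gaps between gated CD8 and CD4 cells in both libraries were ranked. Highest in CD8 were Ly6c2, Plac8, Nkg7, Klrd1, Ctsw and Ccl5, with Nkg7, a cytotoxic granule protein, at 822 against 78.7 CPM in the CKO and 791 against 61.8 CPM in the control library. Lowest were Ly6c1, Izumo1r (folate receptor 4), Igfbp4, Ass1, Itm2a and Ly6a, with Izumo1r at 47.3 against 143 CPM and 38.4 against 188 CPM. Ccl5 in gated control cells came to 54.7% from 3 cells, and in gated CKO cells to 24.9%.

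The largest gaps between the gated cells of the libraries were ranked over all measured genes. The highest in CKO over control were Gzma, S100a4, Trdc, Pdlim4, Igfbp4, S100a6, Orc4, Lck, Ttc5 and Fbxl5. Gzma, a cytotoxic granule protease, had 490 UMIs in 34 CKO cells and 29 UMIs in 15 control cells, a log2 ratio of 3.45 (2.91 to 4.04), and 3 CKO cells held 52.4% of its UMIs. Its log2 ratio was 4.29 in gated CD8 cells, 0.83 in gated CD4 cells (6 and 2 UMIs) and 1.76 in gated cells with Xist. Igfbp4 was at 557 and 226 CPM, 1.30 (1.13 to 1.48), spread over 232 and 99 cells. Lck, a kinase of the T cell receptor pathway (chromosome 4, 129548344 to 129573641, minus strand), was at 1005 and 465 CPM, 1.11 (0.99 to 1.23). In other T cells Gzma stood at 1.93, Igfbp4 at 0.93 and Lck at 1.30, so these gaps were found outside the gate as well. Within 1 lineage, Pdlim4 and S100a6 (0.58 each in gated CD4 cells) and Fbxl5 (0.32 in gated CD8 cells) did not pass 1.5-fold. S100a4 was at 2.01 over all gated cells and at 1.24 without the 6% of cells with most UMIs.

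The lowest in CKO over control were Ly6c2, Ctla2a, Fam117b, H2-Ke6, Tgif1, Itgb1, Cenpq, Bcl2a1b, Vmp1 and Rgcc. Ly6c2, a memory CD8 marker, was at 166 and 377 CPM, −1.18 (−1.37 to −0.99), and in gated CD8 cells at 434 and 708 CPM. Itgb1, an integrin chain of memory cells, was at 41.8 and 79.6 CPM, −0.93 (−1.33 to −0.54). Ctla2a was at 46.8 and 106 CPM, −1.17, but 1.63 in gated CD4 cells alone. Bcl2a1b, which has near-identical copies that could share reads, was at 24.1 and 42.4 CPM, −0.82, and at 0.033 in cells with a Y-linked UMI. In gated CD8 cells Tgif1 (−0.23) and Rgcc (−0.24) did not pass 1.5-fold, nor did Ly6c2 (−0.44, 5 and 4 UMIs) and H2-Ke6 (−0.53) in gated CD4 cells. In cells with a Y-linked UMI Tgif1 (−0.35) and Itgb1 (−0.51) did not pass.

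The naive T cell list had a median of 0.10 over 12 genes, with 2 higher past 1.5-fold (Igfbp4 and Il7r), against 2.49% of all measured genes. Il7r, the receptor that keeps naive cells alive, was at 659 and 423 CPM, and the homing receptor Ccr7 at 223 and 281 CPM, −0.34 (−0.52 to −0.15). Of 12 memory and effector genes measured 4 were higher (Gzma, S100a4, S100a6 and Lgals1) and 4 lower (Ly6c2, Itgb1, Maf and Il2rb), against 2.49% and 1.32% of all measured genes. Eomes, a memory CD8 factor short of the level minimum, had 19 CKO and 59 control UMIs, and Gzmb had 80 and 6. In other T cells 5 of 12 memory and effector genes measured were higher and 3 lower, against 1.03% and 0.472% of all genes. Gaps in both directions were thus not particular to the gated cells. Against other T cells of the same library the naive list stood at medians of 0.07 and −0.07, with 0 of 12 genes past 1.5-fold in either. Of 9 early activation and 5 dissociation stress genes 0 passed 1.5-fold between the gated cells of the libraries, with medians of −0.11 and −0.08. With 2.49% of all measured genes higher and 1.32% lower there, these counts show nothing particular to the 2 lists.

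Markers of other cells were summed beside these results. In gated cells the γδ list (Trdc and 2 constant region genes) was at 165 CPM in the CKO and 62.0 CPM in the control library, with Trdc in 47 and 10 cells. The 3 highest cells held 76.6% of the 64 control UMIs of Trdc, whose log2 ratio was 1.48 (1.08 to 1.89) with and 3.22 without the 3 highest cells of each library. The same list was at 161 and 50.2 CPM in other T cells. The NKT list was at 4.64 and 18.9 CPM, the NK list at 40.9 and 34.6 CPM with 1 of 5 markers at 0 in each, and the B list at 24.9 and 15.0 CPM with 3 of 6 at 0 in each. Erythroid genes were at 13.5 CPM (32 UMIs) and 0.652 CPM (1 UMI), and neutrophil genes had 0 UMIs in both. Plasma cell, plasmacytoid dendritic cell and myeloid lists were at 26.2, 47.7 and 89.9 CPM in CKO and at 26.7, 50.9 and 77.0 CPM in control gated cells. Their part in the results was not tested. Without cells that carry a Gzma, S100a4 or Trdc UMI, an alternative added after seeing the data, the ratio of shares was 1.47 (1.20 to 1.81), the Usp18 log2 ratio in gated cells 0.72 (0.47 to 0.99) and the type I median −0.03.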

How the data were processed

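The authors deposited counts, whole numbers of UMIs per gene and barcode without normalization, with Cell Ranger 3.1.0 named in the submitters' processing notes and the same version number in the file headers. CASAVA 1.8, Seurat 2.3.4 and mm10 are listed there too, without a role. The files' genome annotation version is not given in the sources used here. Each matrix has 30905 gene rows.

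Cells were filtered and gated on these counts. Doublets were not removed. Per set of cells, summed UMIs became CPM (UMIs per 1000000), whose intervals are exact Poisson intervals. Ratios have exact conditional binomial intervals and shares Clopper-Pearson intervals, at 95%, which cover counting error only. PCR duplicates are collapsed by UMIs. With 1 library per group no p-value was computed. Thinning to 2000 or 3000 UMIs used 1 seeded draw, and eligibility, gate and lineage were called again on the thinned UMIs. A zero was given a floor of 3 UMIs.

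Named genes were the 10 highest and 10 lowest of CKO over control in gated cells, the 12 highest and 6 lowest of gated over other cells in both libraries, and the 6 highest and 6 lowest of CD8 over CD4, beside list members by role. Gate genes, receptor segments, mitochondrial, ribosomal, sex-linked and predicted genes were left out of rankings. The members and lists were chosen with earlier results of these data known. The computation was tested on simulated data (Python 3.11.15, numpy 2.4.6, scipy 1.17.1, pandas 2.3.3, matplotlib 3.10.9).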

Additional observations from a re-analysis of the deposited data

How the results depend on the processing

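The share ratios stayed above 1 and the Usp18 ratios above 0 under every alternative run. No paired analysis was possible because each group is 1 library, which also prevents leaving out a replicate. Under the filter of 1000 genes and 5% mitochondrial UMIs the CD8 share ratio was 1.004, and 135 genes were higher and 97 lower past 1.5-fold, against 89 and 47. Thinning to 3000 and 2000 UMIs gave CD4 share ratios of 2.64 and 3.06, on 12 and 5 gated control CD4 cells. The CD8 shares of gated control cells were then 74.5% and 75%. Lineage was called again on the thinned UMIs, and the eligible control cells shifted too, from 1700 CD4 and 2201 CD8 cells as sequenced. They were 1047 and 1868 at 3000 UMIs and 671 and 1468 at 2000 UMIs. The part of these calls in the CD8 shares was not tested. The gate on Ifit1 with Rsad2 or Isg15, chosen after seeing the data, gave a share ratio of 1.12. Cells with a Y-linked UMI gave a type I median of −0.14, 237 genes higher and Bcl2a1b at 0.033, and cells with Xist 139 higher and 139 lower. CD4 cells alone gave Usp18 at 0.32 inside and 1.61 outside the gate, a type I median of −0.13, 92 genes lower and Ctla2a at 1.63. CD8 cells alone gave Usp18 at 1.001, a type I median of 0.16, 183 genes higher and Isg15 at 0.14. At least 2 Ifit3 UMIs gave 150 higher and 91 lower, leaving out the 6% of cells with most UMIs 73 lower, a minimum of 120 UMIs 28 and 13, and a 2-fold threshold 12 and 4. Several of these settings used fewer cells, and counting error is wider on smaller sums. The causes of the changes were not tested. Counts limit rare genes: Prmt5 rests on 15 and 14 UMIs in gated cells.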
